A study of Homo sapiens with 6 samples.

Results

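The S100 proteins are small calcium sensors, and 10 of their genes (S100A2, S100A4, S100A6, S100A8, S100A9, S100A10, S100A11, S100A13, S100A14 and S100A16) were followed here among the 23615 genes of the deposited table. They were chosen by symbol, as listed S100 genes, and the remaining 11 S100 rows of the table are given beside them. The cells were H1 hESCs, an established line of human embryonic stem cells, which were driven toward ectoderm with 0.5 nM BMP-4 over 3 days and with 10% fetal calf serum from day 4 to day 10. Cells were grown at 5% O2 and 5% CO2, and both groups received BMP-4 and serum. One group had 5 μM DAPT, a γ-secretase inhibitor that blocks the cleavage of Notch receptors and of other membrane proteins, and the other had its solvent ethanol (labelled ETOH), with 3 libraries of poly-A RNA for each group. All libraries are of the single line H1, and separate cultures are not named in the labels.

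S100 proteins carry a pair of EF-hands, the helix-loop-helix motif that holds calcium, and most work as dimers that open on calcium binding and then grip a partner such as an annexin or a myosin. In skin the family is known from keratinocytes, and most of its genes lie on chromosome 1 beside the genes of the cornified envelope, the protein shell of dead surface keratinocytes. Inside cells S100 proteins act on the cytoskeleton, on membranes and on secretion without a signal peptide, and outside cells some are ligands of receptors of innate immunity.

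The table holds a single FPKM value per treatment (fragments counted on a transcript, scaled by its length and by the number of mapped fragments), which the authors set over the 3 libraries. Single libraries have no value in it. For that reason neither depth nor SD could be had, and no difference below was tested against replicate error. A difference is given as the log2 of DAPT over ethanol after adding 0.1 FPKM to both, and a gene is called higher or lower when it is past 2-fold and has at least 1 FPKM in 1 treatment. Of all 13480 genes over that minimum, 4.92% were called higher and 5.45% lower, and their median log2 fold change was 0.00065 with quartiles of -0.28 and 0.27. The sheet of all genes names the treatments the opposite way from the sheet of changed genes for the same values, in all 1417 rows they share. The naming of the latter was used, under which the surface ectoderm gene TFAP2A is higher with DAPT (21.8 against 7.10 FPKM) and the pluripotency gene POU5F1 lower (47.3 against 240.1 FPKM). The POU5F1 row is placed on 6_ssto_hap7, an alternate copy of part of chromosome 6. With the other naming each direction below would be turned.

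Among the 10 members, S100A14 and S100A9 were lower with DAPT, none was called higher and 7 lay within 2-fold. S100A8 was the member below 1 FPKM. The 2 lower members are 2 of 9 over the minimum, against the 5.45% of all genes. Of the 9 members, 7 had log2 fold changes above 0, from 0.08 to 0.55, and 2 below 0, where 50.1% of all expressed genes were above 0. The median over the 9 was 0.26. S100 transcripts were abundant in both treatments, with S100A11, S100A6 and S100A10 among the most highly expressed genes of the table. In bulk RNA, fewer cells of a type and less RNA per cell cannot be told apart, and this holds for every difference given here.

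**Figure D1:**
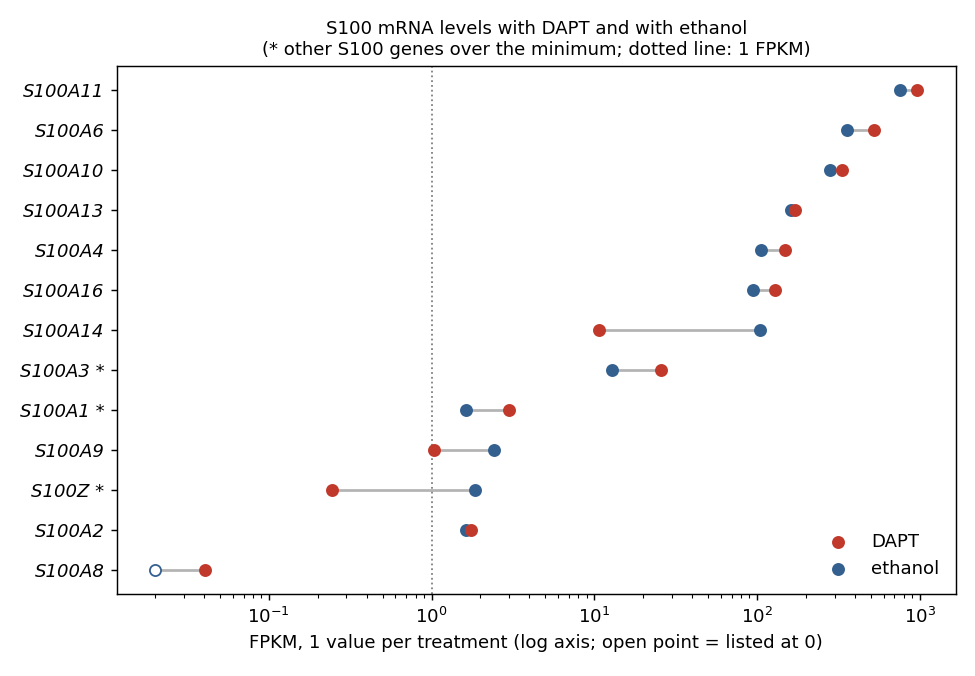
FPKM (log axis, 1 value per treatment, no error available) of the 10 S100 members and of the 3 other S100 genes over 1 FPKM, with DAPT in red and ethanol in blue. S100A14 goes from 104.8 with ethanol to 10.7 with DAPT, while the other members over 90 FPKM sit slightly higher with DAPT. The open point marks S100A8 in ethanol, which is listed at 0.

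S100A14, an S100 protein of epithelial cells, showed the widest difference of the family. Its mRNA was at 10.7 FPKM under DAPT against 104.8 FPKM under ethanol, so that the ethanol value was 9.76 times the DAPT value (log2 fold change -3.28). Only 74 of the 13480 expressed genes had a lower log2 fold change, and 54 of those were listed at 0 with DAPT. Of the 754 genes that reached 100 FPKM in 1 treatment, 8 lay lower. The gene is on the minus strand of chromosome 1 (153586732 to 153588808 in hg19), and its locus is shared with no other row. With ethanol S100A14 stood close to S100A4 (105.4 FPKM) and S100A16 (94.0 FPKM), and with DAPT far below both (148.0 and 129.2 FPKM).

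The gene next to S100A14 did not share its difference. S100A16, a widely expressed member, ends its row 1217 bases before that of S100A14 begins (153579367 to 153585514, same strand) and was at 129.2 FPKM under DAPT against 94.0 FPKM under ethanol (log2 fold change 0.46). In FPKM, which is scaled by transcript length, S100A14 was at 1.11 times S100A16 with ethanol and at 0.0831 times with DAPT. The neighbours therefore lay side by side in ethanol and far apart in DAPT. Because they sit together on the chromosome and part in level, the 250 bases before the start site of each are shown, taken from RefSeq (build GRCh38.p14) and matched exactly once to GRCh37, the build of hg19. RefSeq lists 1 start for S100A14 and 2 for S100A16, of which the one farther upstream is shown. The window of S100A14 lies at chr1:153588802-153589051 and that of S100A16 at chr1:153585614-153585863, both on the minus strand and written 5′ to 3′. Capitals mark matches to a TATA element (TATAA), to the core bound by the Notch effector RBPJ (TGGGAA or its complement TTCCCA) and to the E-box read by SNAI and ZEB repressors (CAGGTG or its complement CACCTG).
S100A14: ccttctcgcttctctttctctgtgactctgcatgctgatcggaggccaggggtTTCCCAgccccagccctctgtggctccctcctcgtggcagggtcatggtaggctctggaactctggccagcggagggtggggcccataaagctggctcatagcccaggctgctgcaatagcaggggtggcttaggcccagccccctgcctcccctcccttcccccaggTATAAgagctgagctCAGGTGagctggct
S100A16: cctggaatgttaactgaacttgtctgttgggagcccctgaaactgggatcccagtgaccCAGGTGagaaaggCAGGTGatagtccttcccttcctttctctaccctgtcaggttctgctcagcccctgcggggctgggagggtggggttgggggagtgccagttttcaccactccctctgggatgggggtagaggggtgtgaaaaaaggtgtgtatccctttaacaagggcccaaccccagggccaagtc

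The S100A14 window holds the TATA element from base -29 to base -25 before the start, the E-box from -14 to -9 and the RBPJ core from -197 to -192. The window of S100A16 holds the E-box letters 2 times, from -191 to -186 and from -178 to -173, and neither of the other motifs. Before the other start of S100A16 no motif was found, and its E-box match lies after that start, from base 45 to base 50. In these windows TATA and RBPJ letters were found for S100A14 and not for S100A16. TATAA was chosen after the S100A14 window had been read, so its presence there was set in advance and the TATA contrast supports nothing. RBPJ letters also lie in windows of S100A9, which was called lower, of S100A4 and S100A2, which were within 2-fold, and of S100A8, under the minimum.

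Over the family, 16 windows of 300 bases (250 before to 50 after a start) were found in RefSeq, and all 10 members matched at least 1. TATAA, searched on the gene's strand only, was in the windows of 6 members (S100A4, S100A6, S100A8, S100A9, S100A13 and S100A14) and in 14.8% of all 35116 windows. In all 6 a match began from -31 to -29. The longer form TATAAA was in windows of 4 members and not in that of S100A14, and in 7.33% of all windows. The E-box and the short form TATAA were chosen after the S100A14 window had been read, so their counts over the members are a description and support nothing. CAGGTG on both strands was in windows of 6 members and in 20.6% of all windows. TGGGAA on both strands was in 5 members (S100A2, S100A4, S100A8, S100A9 and S100A14) and in 24.0% of all windows. In S100A4 its match overlaps that of the E-box. The AP-2 motif GCCNNNGGC (both strands) was in 2 members, S100A2 and S100A6, against 23.2% of all windows. The AP-1 motif TGANTCA (both strands) was in S100A2 only, against 7.71% of all windows. Members have up to 3 windows each, so counts over genes and shares of windows are not the same quantity. Of the 16 member windows, 43.75% held TATAA, 31.25% TATAAA, 56.25% CAGGTG, 31.25% TGGGAA, 12.5% the AP-2 motif and 6.25% the AP-1 motif. TATAA was held by both members called lower, S100A14 and S100A9, and also by genes within 2-fold, such as S100A6 and S100A4. TGGGAA was held by S100A14 and S100A9, by S100A4 and S100A2 within 2-fold, and by S100A8 under the minimum. The part of any motif in these values was not tested. A match of letters is not a bound site.

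S100A9 and S100A8 encode the paired chains of calprotectin, the calcium- and zinc-binding complex that neutrophils store and that stressed keratinocytes make. S100A9 (153330330 to 153333503, plus strand) was at 1.04 FPKM under DAPT against 2.41 FPKM under ethanol, a log2 fold change of -1.14. It was low in both treatments, and with 1 FPKM added in place of 0.1 its log2 fold change was -0.74 and it was not called. S100A8 (153362508 to 153363664) was at 0.0407 FPKM with DAPT and listed at 0 with ethanol. Its log2 fold change of 0.49 is set by the added 0.1 FPKM, so no fold can be read from it. S100A9 was thus above its partner in both treatments. Markers of myeloid cells, which carry most calprotectin in the body, were low as well. Of 12 such genes 2 reached 1 FPKM, CSF1R (1.21 and 0.288 FPKM), which was called higher, and FCER1G (0.938 and 1.36 FPKM), which was not called. The 12 genes summed to 2.74 FPKM with DAPT and 3.16 with ethanol, and ELANE was listed at 0 in both. PTPRC, which marks all white blood cells, was at 0.0113 and 0.00238 FPKM.

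**Figure D2:**
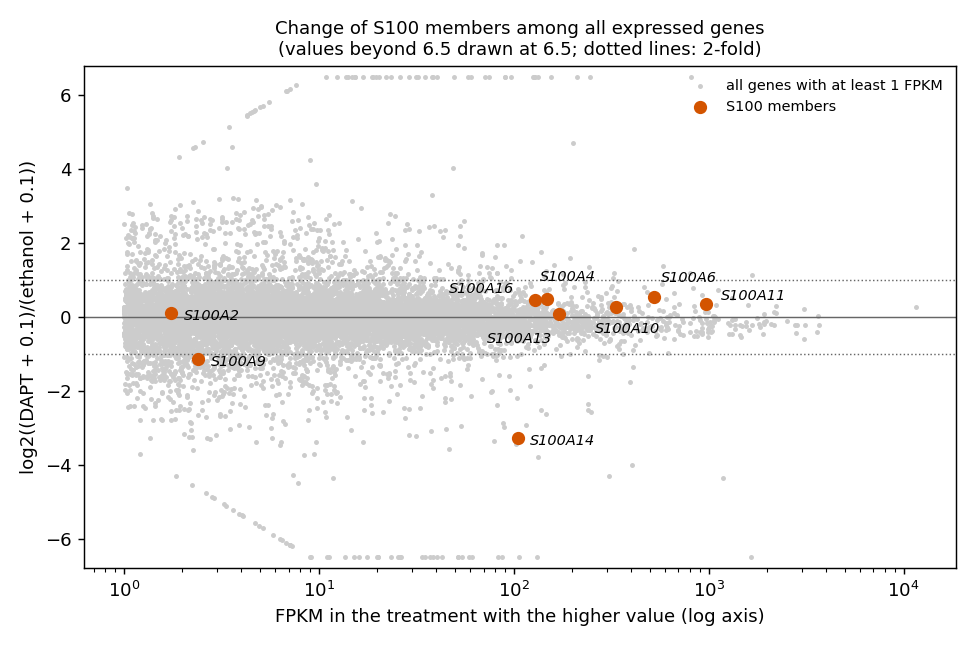
Log2 fold change of DAPT over ethanol (0.1 FPKM added) against the higher of the FPKM values (log axis) for all genes over 1 FPKM in gray and the 9 S100 members over that minimum in orange, with dotted lines at 2-fold. S100A14 lies at -3.28 and S100A9 at -1.14, and the other 7 lie between 0.08 and 0.55. Values are single FPKM pairs with no error.

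The members that bind annexins were among the most abundant mRNAs. S100A11, which pairs with annexin A1 and is cross-linked into the cornified envelope of keratinocytes, was at 969.1 FPKM under DAPT against 760.7 FPKM under ethanol (log2 fold change 0.35) and held rank 52 and rank 80 of all rows. S100A10, known as p11, has lost calcium binding and stays in its open form in a complex with annexin A2. It was at 335.6 FPKM under DAPT against 280.1 FPKM under ethanol (log2 fold change 0.26). These differences are small, and without values per library their error is unknown.

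S100A6 and S100A4 flank S100A5, and both were somewhat higher with DAPT. S100A6, or calcyclin, binds the ubiquitin-linked protein CACYBP and is common in proliferating epithelium and fibroblasts. It was at 523.9 FPKM under DAPT against 358.6 FPKM under ethanol, the highest log2 fold change among the members, 0.55. S100A4, which binds nonmuscle myosin IIA, is made by motile and mesenchymal cells. It was at 148.0 FPKM under DAPT against 105.4 FPKM under ethanol (log2 fold change 0.49). S100A5 between them was at 0.149 and 0.168 FPKM, under the minimum.

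S100A13, which takes part in the export of FGF1 and interleukin-1α by a route without signal peptide, was at 171.5 FPKM under DAPT against 162.4 FPKM under ethanol (log2 fold change 0.08). Its locus (153591276 to 153618782) is shared by 3 rows, those of S100A13, S100A1 and CHTOP. All 3 rows are marked as failed in the authors' comparison. S100A1 is transcribed from the opposite strand. Whether strand was used in the counting is not given in the sources used here, and how reads were divided between these genes cannot be read from the table. S100A2, a p63 target of basal keratinocytes, was at 1.75 FPKM under DAPT against 1.62 FPKM under ethanol (log2 fold change 0.10). TP63 itself was at 3.88 FPKM under DAPT against 0.546 FPKM under ethanol (log2 fold change 2.62), and the basal keratin gene KRT5 at 1.53 and 0.260 FPKM (2.18). S100A2 thus stood near its ethanol level where both of these were more than 2-fold higher. All 3 genes were low, and TP63 and KRT5 were under 1 FPKM with ethanol. Whether S100A2 followed TP63 was not tested.

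The abundant members were set against genes of like level. Of the 754 genes that reached 100 FPKM in 1 treatment, 35.3% had a log2 fold change above 0, their median was -0.13 and their upper quartile 0.13. Of the 7 members at this level, 6 had a log2 fold change above 0 and 5 lay above that quartile. For S100A6, 7.96% of these 754 genes were higher still, for S100A4 9.28%, for S100A16 9.68%, for S100A11 12.7% and for S100A10 17.0%. S100A13 lay lower in this order, with 28.5% above it. S100 mRNAs are short, and genes of like transcript length also tended to be lower with DAPT. The canonical transcripts of the 9 members over the minimum span 434 to 1172 bases in the GENCODE annotation of GRCh37, and the 1057 expressed genes in that range had a median log2 fold change of -0.24 and an upper quartile of 0.02. Of the 9 members, 7 lay above this quartile. Lengths were found for 90.5% of the expressed genes. The part of length or level in the members' values was not tested.

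**Figure D3:**
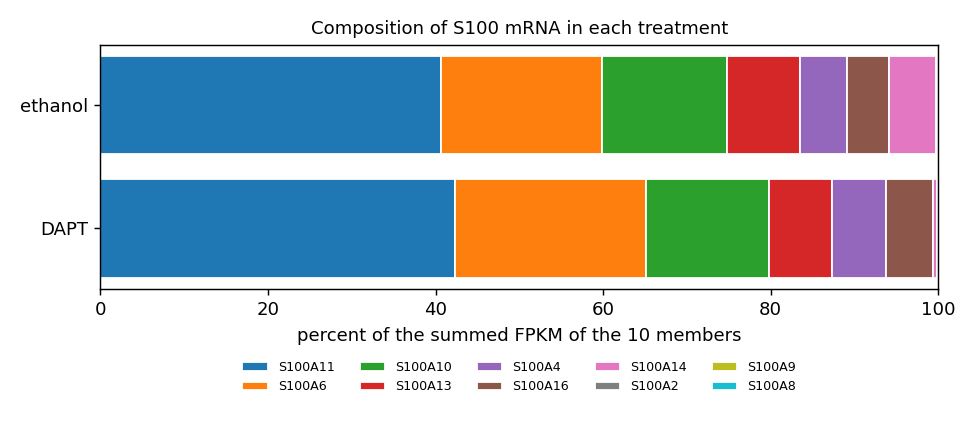
Share of each of the 10 members in their summed FPKM, with ethanol above and DAPT below. S100A11, S100A6 and S100A10 hold 74.8% with ethanol and 79.8% with DAPT, and S100A14 narrows from 5.60% to 0.469%.

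The composition of the S100 mRNA pool followed from these values. The summed FPKM of the 10 members was 2291 with DAPT and 1870 with ethanol, a ratio of 1.23, or 1.29 when S100A14 is left out. S100A11 supplied 42.3% with DAPT and 40.7% with ethanol, and S100A6 22.9% and 19.2%. S100A14 supplied 0.469% with DAPT against 5.60% with ethanol, where it had equalled S100A4 (5.63%). S100A2, S100A8 and S100A9 together added almost nothing to either pool. The members made up 0.542% of all FPKM with DAPT and 0.422% with ethanol.

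The 11 other S100 rows included 3 over the minimum. S100A3, a cysteine-rich protein of the hair cuticle, was at 25.7 FPKM under DAPT against 12.9 FPKM under ethanol, and its log2 fold change of 0.99 lay just inside 2-fold. When the FPKM of each treatment were scaled to the same total, it passed 2-fold. S100A1, which tunes calcium cycling in heart muscle, was at 3.00 and 1.64 FPKM (0.83, in the shared locus above). This value from a failed row is also the median of the 3 genes. S100Z, on chromosome 5, was at 0.245 FPKM under DAPT against 1.86 FPKM under ethanol (-2.51) and was called lower. The other 8 were under 1 FPKM, among them S100A7 (psoriasin), S100A12, S100P and S100B, and 3 of the 11 were listed at 0 in both treatments.

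**Figure D4:**
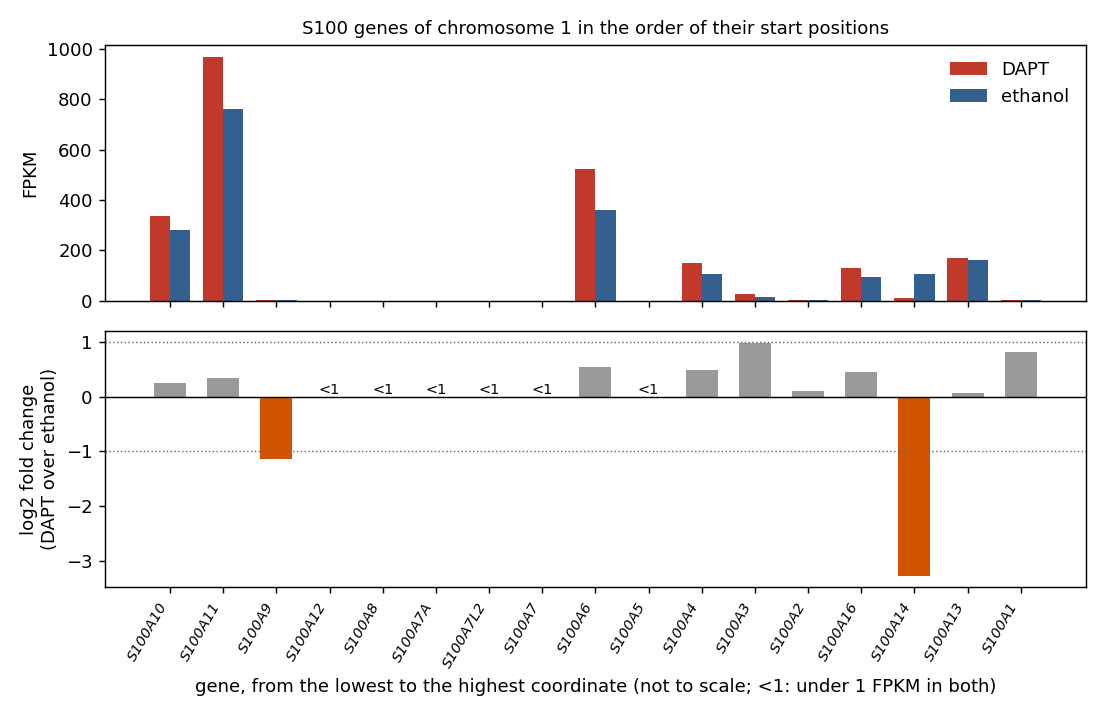
The 17 S100 genes of chromosome 1 in order of their start positions (not to scale), with FPKM per treatment above and log2 fold change of DAPT over ethanol below. Orange bars are past 2-fold, the dotted lines mark 2-fold, and genes under 1 FPKM in both treatments are marked. S100A14, at -3.28, sits between S100A16 (0.46) and S100A13 (0.08).

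All 10 members lie on chromosome 1, and 9 of them on the minus strand. Levels differed along this interval. S100A10 and S100A11 at its lower end were abundant, the run from S100A9 to S100A7 held no S100 gene over 2.41 FPKM, and from S100A6 to S100A13 abundant genes stood among low ones such as S100A5 and S100A2. Of the 47 other rows between the outermost S100 genes, which include those of the cornified envelope, 2 were over the minimum, PRR9 (4.00 and 6.42 FPKM) and CHTOP (43.6 and 51.1 FPKM), and 31 were listed at 0 in both treatments. The 7 fused-type genes, which join an S100 domain to long repeats and serve late epidermis, were all under the minimum, 3 of them listed at 0 in both treatments. The highest was TCHH, which encodes trichohyalin of the hair follicle, at 0.0301 and 0.0157 FPKM.

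The annexin partners of S100A10 and S100A11 were abundant as well, and somewhat higher with DAPT. ANXA2, the partner of S100A10, was at 1313 FPKM under DAPT against 919.3 FPKM under ethanol (log2 fold change 0.51), and ANXA1, the partner of S100A11, at 316.3 and 183.6 FPKM (0.78). In FPKM S100A10 was at 0.256 times ANXA2 with DAPT and 0.305 times with ethanol, and S100A11 at 3.06 times ANXA1 with DAPT and 4.14 times with ethanol. Of 9 annexin genes over the minimum none was called, 7 had a log2 fold change above 0 and the median was 0.23. The highest log2 fold change was that of ANXA1, and the membrane-binding ANXA5 stayed near its ethanol level (313.9 and 293.6 FPKM).

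Other partners inside cells were described one by one. The scaffold AHNAK, which binds the complex of S100A10 and annexin A2, was at 48.8 and 32.0 FPKM (0.61), and MYH9, the myosin bound by S100A4, at 187.4 and 145.0 FPKM (0.37). MYH10, the related nonmuscle myosin IIB, was at 61.1 and 48.1 FPKM (0.35). CACYBP stood at 17.9 and 19.1 FPKM. The cargo genes of S100A13 were FGF1 (2.44 and 2.68 FPKM) and IL1A (4.43 and 3.11 FPKM), with SYT1, a further part of the FGF1 export complex, at 4.77 and 6.28 FPKM. Of 5 receptor genes over the minimum none was called, and the median was -0.24, a sign that turned with a minimum of 5 FPKM (0.29) and with no minimum (0.25). AGER, the RAGE receptor, was at 2.01 FPKM under DAPT against 2.75 FPKM under ethanol, TLR4 at 2.24 and 2.67 FPKM, and BSG, a receptor of S100A9 and the most abundant, at 184.6 and 277.5 FPKM (-0.59). Its relatives NPTN and EMB were at 71.7 and 58.4 FPKM (0.29) and at 9.80 and 6.25 FPKM (0.64). The AGER row, like that of POU5F1, is placed on 6_ssto_hap7, and how reads were divided between copies of the gene is not known.

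**Figure D5:**
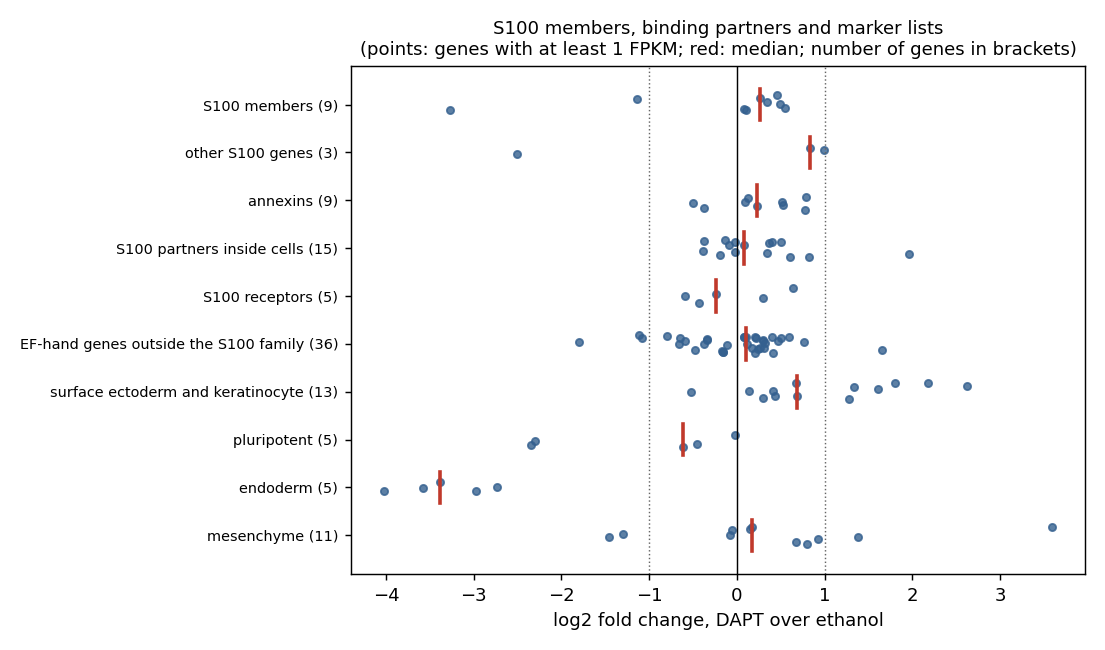
Log2 fold change of DAPT over ethanol for genes with at least 1 FPKM in each list, with the median as a red line and dotted lines at 2-fold. The S100 members have a median of 0.26 with S100A14 and S100A9 apart on the left, while the 5 endoderm markers lie at a median of -3.38. Points are single genes and not replicates.

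Markers of several cell types are given beside these values, and their lists differed in direction. Of 13 surface ectoderm and keratinocyte markers over the minimum 6 were called higher and none lower (median 0.69), with a summed level of 2171 FPKM with DAPT and 1812 with ethanol. Most of each sum came from KRT8 and KRT18, whose rows carry the same locus. Besides TP63, KRT5 and TFAP2A above, GRHL2 was called higher (13.9 and 3.90 FPKM), while the simple-epithelium keratins KRT8 (961.0 and 876.0 FPKM) and KRT18 (845.6 and 687.2 FPKM) and EPCAM (66.2 and 95.1 FPKM) were not called. All 5 endoderm markers were called lower (median -3.38), with sums of 33.4 and 486.0 FPKM, and none was at 0. They were led by APOA1 (24.7 and 402.6 FPKM), TTR, FOXA2 and SOX17. Of 5 pluripotency markers 2 were called lower and none higher (median -0.61), with sums of 219.9 and 478.3 FPKM. These were POU5F1 and NANOG (2.06 and 10.5 FPKM). Of 11 mesenchyme markers 2 were called higher and 2 lower (median 0.17), with sums of 2454 and 2300 FPKM. DCN (9.72 and 0.713 FPKM) and PRRX1 were higher, PDGFRA and THY1 (57.8 and 142.4 FPKM) were lower, and VIM was at 926.9 and 965.8 FPKM. Of 4 endothelial markers 3 were over the minimum and KDR was called lower, with sums of 19.2 and 40.4 FPKM. Of 4 markers of crest and glia SOX10 was called higher, with sums of 22.4 and 10.4 FPKM, and of 6 trophoblast markers HSD3B1 reached 1 FPKM, with sums of 2.16 and 1.80 FPKM. The part of any cell type in the values of S100A14 or of the other members was not tested.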

How the data were processed

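RNA of 6 libraries, 3 with DAPT and 3 with ethanol, was sequenced as stranded poly-A cDNA. Reads were mapped to hg19 with TopHat2 2.0.6, per the labels, and expression was computed with Cufflinks. The FPKM values were computed and deposited by the authors, 1 per treatment. Fold change, test statistic, p-value and q-value columns of the authors' own comparison were not used. The sources used here name neither the annotation nor the scaling between libraries, and the depth is unknown.

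Log2 fold changes were computed with a pseudocount of 0.1 FPKM, in Python 3.11.15 with pandas 2.3.3, which understates the change of low genes. Genes with at least 1 FPKM in 1 treatment were kept, and a call needed more than 2-fold. With 1 value per treatment no test was made. The calling code was run on simulated data with planted changes larger than the 2-fold cut. That run checks the code alone and says nothing of the error of the values here. Locus starts count from 0 in the table and were raised by 1. The members and lists were chosen with earlier results of these data known. Named genes are the 10 members, other S100 genes over the minimum and known binding partners. From each list up to 4 called genes and the 3 highest not called were to be named. Genes not called were left unnamed for the pluripotency, the endothelial and the crest and glia lists. Of the mesenchyme genes not called, only VIM was named. TCHH, PTPRC, ELANE and S100A5 were named after their values were seen. The E-box and TATAA were chosen after the S100A14 promoter had been read. Alternatives changed the pseudocount, the minimum, the scaling, the fold and the rows kept. One partner gene and the call count of its list are not reported here.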

Additional observations from a re-analysis of the deposited data

How the results depend on the processing

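No paired analysis was possible because the table holds 1 pooled value per treatment, and for the same reason no library could be left out. Of 155 alternative values 129 stayed within 0.1 on the log2 scale, 1 percentage point or 1.5 times a count, and 26 moved further. The 129 include values that could hardly move. Shares are unchanged by scaling to equal totals, and centring shifted log2 values by 0.00065. None of the 39 alternative log2 values of members, those of S100A8 included, changed sign, but this is no check. A pseudocount added to both values cannot turn a sign, and the scaling and centring could not turn any member value. With 1 FPKM added, 1 member was called lower in place of 2, S100A9 was at -0.74, S100A14 at -3.17, S100A8 at 0.058, and the medians were 0.26 for members, 0.60 for other S100 genes and 0.11 for EF-hand genes, with 423 genes higher and 421 lower in all. With a minimum of 5 FPKM, 1 member of 7 was called lower, the medians were 0.35 for members, 0.99 for other S100 genes (S100A3 alone), 0.37 for annexins, -0.019 for partners inside cells, 0.29 for receptors and 0.17 for EF-hand genes, and 351 genes were higher and 351 lower. With no minimum, the medians were 0 for other S100 genes and for the genes between them on chromosome 1, 0.25 for receptors and 0.14 for EF-hand genes. Scaled to equal totals, which moves log2 values by 0.07, the median of other S100 genes was 0.92 and S100A8, whose value rests on the pseudocount, was at 0.97. At 1.5-fold, 1414 genes were higher and 1528 lower. The fused-type genes have no median, since none reached the minimum. What limits every value is the missing depth and replicate error.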

Other observations

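EF-hand genes outside the S100 family, listed with earlier results of these data known, lay around the centre of all genes. Of 36 over the minimum, 1 was called higher and 3 lower, with a median log2 fold change of 0.11. NCALD, the neuronal calcium sensor neurocalcin δ, was at 11.4 FPKM under DAPT against 3.54 FPKM under ethanol (1.65). The lower genes were CALB1, which encodes the calcium buffer calbindin (0.472 and 1.90 FPKM, -1.80), and the troponin C genes TNNC2 of fast muscle (0.823 and 1.90 FPKM, -1.12) and TNNC1 of slow and cardiac muscle (25.9 and 54.8 FPKM, -1.08). With 1 FPKM added, 1 of these 3 was still called lower. The most abundant members were SPARC, a matrix protein (925.3 and 615.0 FPKM, 0.59), the calmodulin gene CALM2 (393.7 and 315.4 FPKM, 0.32) and CAPNS1, the small calpain subunit (252.7 and 209.9 FPKM, 0.27), all within 2-fold.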
